A study of Mus musculus with 9 samples.

Results

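The genes described here are NRF2 targets and antioxidant enzymes of mouse heart: the transcription factor gene Nfe2l2, which encodes NRF2, and Nqo1, Gclc, Gclm, Gsr, Txnrd1, Srxn1, Sod1, Sod2 and Cat. They were chosen by symbol, and all 10 were among the 29237 genes of the deposited expression table. The study compared hearts of wild-type C57BL/6 mice aged 8 to 12 weeks in 3 groups of 3 libraries. The labels name the groups TPTN, DOX and control, and the series describes them as a TPTN-treated group, a doxorubicin model group of dilated cardiomyopathy and a normal group. Whether the TPTN hearts were also exposed to doxorubicin is not stated in the labels, nor are the meaning of TPTN, the doses, days or sexes. Nothing beyond the replicate numbers states that the libraries are separate animals, so p-values measure the spread between these samples, which may be technical.

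NRF2 is a transcription factor that KEAP1 binds and marks for degradation. Oxidants and electrophiles modify KEAP1, and NRF2 then builds up and, paired with small MAF proteins, binds antioxidant response elements near genes of glutathione, thioredoxin and quinone metabolism. Superoxide dismutases turn superoxide into hydrogen peroxide, which catalase, glutathione peroxidases and peroxiredoxins remove. Doxorubicin, an anthracycline, can pass electrons to oxygen in heart muscle, and oxidative stress is one of the ways by which it is thought to damage the heart.

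The upstream sequences of 2 of these genes are shown because Sod1 was the one gene of the 10 that passed the test in any comparison and Srxn1 was the only one with more than 1 match to the motifs searched. Each is the stretch of 250 bases before the RefSeq start site on GRCm38.p6, 5′ to 3′ along the gene, with motif matches in capitals. The Sod1 stretch is chr16:90220512-90220761 on the plus strand and the Srxn1 stretch is chr2:152105274-152105523 on the plus strand.
Sod1: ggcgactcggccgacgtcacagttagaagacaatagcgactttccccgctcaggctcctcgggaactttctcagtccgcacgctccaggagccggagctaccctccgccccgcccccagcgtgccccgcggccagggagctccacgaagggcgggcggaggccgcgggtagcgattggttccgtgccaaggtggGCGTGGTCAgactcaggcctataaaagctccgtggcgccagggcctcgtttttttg
Srxn1: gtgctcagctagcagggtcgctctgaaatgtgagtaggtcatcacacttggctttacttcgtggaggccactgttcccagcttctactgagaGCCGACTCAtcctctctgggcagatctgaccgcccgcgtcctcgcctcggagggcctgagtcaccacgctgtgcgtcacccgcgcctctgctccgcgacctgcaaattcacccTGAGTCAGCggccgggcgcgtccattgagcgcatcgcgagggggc

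The motifs were the core of the antioxidant response element written as TGACNNNGC and a form with G at the fourth base, TGAGNNNGC, searched on both strands. The RefSeq table held a start site for 8 of the 10 genes, with 10 windows in all, since Txnrd1 has 3. The first motif lay once in the windows of Nfe2l2 (TGACTCCGC, starting 240 bases before the start site), Gclm (GCACCGTCA on the gene's strand, 134 bases before), the second window of Txnrd1 (GCTTTGTCA, 92 bases before) and Sod1 (GCGTGGTCA, 56 bases before). The second motif lay at 2 places in the Srxn1 window, as GCCGACTCA 158 bases and TGAGTCAGC 45 bases before the start site. The windows of Nqo1, Sod2 and Cat held neither motif. Sequence outside the windows was not searched, so a gene without a match here may have one elsewhere. Of 32851 windows of the same length over all genes, 10.2% held the first motif, 14.4% the second and 23% at least 1 of them. A match is a string of letters and not a measured binding site.

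The values are FPKM, fragments per kilobase of transcript, divided by the library's total, so levels can be compared between genes. The file gives no counts, and whole reads could not be recovered from its values, so the depth of the libraries is unknown. Genes of the mitochondrial genome took 48.1 to 48.7% of the FPKM sum in TPTN, 44.7 to 46.2% in DOX and 49.8 to 50.9% in control. This share did not overlap between any of the groups, so it moves with each comparison, and FPKM of all other genes depend on it. Its part in the results was not tested beyond the rescalings given below. All 10 heart muscle cell markers were expressed, with a sum of 14796 to 15361 FPKM in TPTN, 14682 to 16787 in DOX and 13245 to 14696 in control. The sum does not stand for each marker. In DOX against control Myl2 and Tnni3 were higher (log2 change 0.38 and 0.28, limma adjusted p = 0.0339 and 0.0412). Ryr2 was lower there (log2 change -0.56, limma adjusted p = 0.0327). Atrial muscle markers summed to 2621, 314 and 217 FPKM in DOX replicates 1, 2 and 3. They summed to 72.3 to 144 FPKM in TPTN and 73.2 to 174 in control, so every DOX library lay above every other library. Values without DOX replicate 1 are given for the 10 genes and, in part, for the lists. Across 12500 genes with a mean of at least 0.5 FPKM, at a Benjamini-Hochberg adjusted p under 0.05, limma called 279 genes higher and 50 lower for DOX against control. For TPTN against DOX it called 99 higher and 308 lower, and for TPTN against control 42 higher and 48 lower. The split between higher and lower depended on scaling. With FPKM rescaled so that mitochondrial genes and nuclear copies of them stay out of the sum, it was 61 higher and 209 lower for DOX against control and 542 higher and 129 lower for TPTN against DOX. Under quantile normalization it was 76 and 67, and 173 and 163, and under median ratio scaling 95 and 60, and 143 and 258.

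Catalase was the most abundant of the 10 transcripts, with a mean of 50.4 FPKM over the 9 libraries. It was followed by Sod2 at 37.6, Sod1 at 31, Nqo1 at 16.3 and Nfe2l2 at 12 FPKM. Srxn1 at 5.63, Txnrd1 at 5.57 and Gsr at 5.18 FPKM formed a lower tier, and Gclm at 2.74 and Gclc at 2.42 FPKM, which encode the subunits of glutamate-cysteine ligase, were lowest. The ranges of neighbours in this order were apart between Cat and Sod2, Sod1 and Nqo1, Nfe2l2 and Srxn1, and Gsr and Gclm. Sod2 lay above Sod1 in 9 of 9 libraries although their ranges over all libraries overlapped, whereas Srxn1 lay above Txnrd1 in 4 of 9 and Gclm above Gclc in 6 of 9, so those neighbours are not set apart. All 10 genes passed the minimum mean used for testing.

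**Figure D1:**
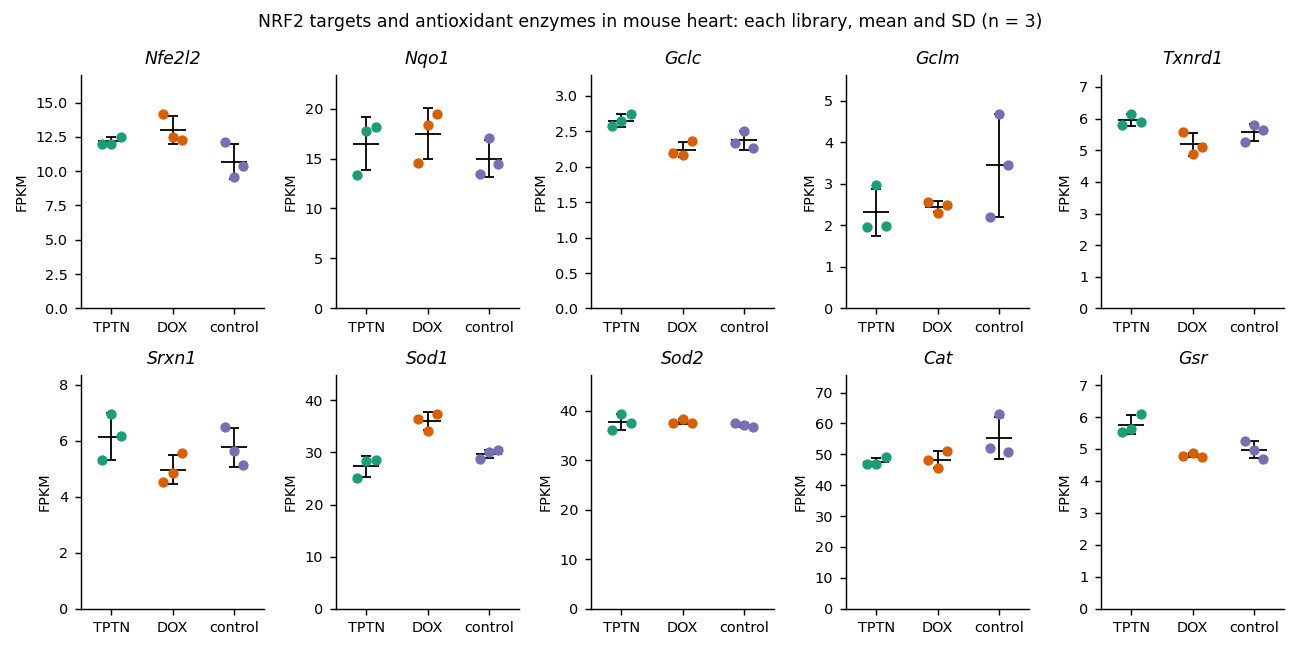
FPKM of each of the 10 genes (vertical axes, each from 0) in the TPTN, DOX and control groups (horizontal axes), with a point per library, and a bar and whiskers for the mean and SD of 3 libraries. Sod1 is higher in each DOX library (34.2 to 37.4 FPKM) than in any TPTN library (25 to 28.5) or control library (28.8 to 30.4), while Sod2 lies between 36.2 and 39.4 FPKM in all 9.

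The first question was whether these genes differed between the hearts of the doxorubicin model and normal hearts. None of the 10 passed the threshold in limma (0 at an adjusted p under 0.05, where 2.23% of all 12500 genes were called higher and 0.4% lower, 2.63% in all). At an unadjusted p under 0.05 there were 2 higher, Nfe2l2 and Sod1, and 0 lower, where the shares of all genes were 14.6% and 3.47%, 18% in all. The median log2 change of the 10 was -0.05, beside 0.04 over all genes tested. In 3 of the 10, Nfe2l2, Sod1 and Sod2, each DOX library was above each control library, and in 0 each was below, where 17.7% and 5.1% of all genes were so placed, 22.8% in all. For Sod2 the lowest DOX and the highest control library both round to 37.5 FPKM, and differ only in further digits. With DOX replicate 1 left out, there were 3 higher and 0 lower at the unadjusted p (13.6% and 5.81% of all genes), 4 apart and higher and 1 apart and lower (23.9% and 14.4%), and the median was -0.05, beside 0.02. The count at the adjusted p stayed at 0 in all 19 alternative settings, among them the fit without DOX replicate 1.

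Nfe2l2 (ENSMUSG00000015839, GRCm38 chromosome 2 from 75675513 to 75704641, minus strand) stood at 14.2, 12.5 and 12.3 FPKM in DOX replicates 1 to 3, against 12.1, 9.6 and 10.4 FPKM in the control replicates. The lowest DOX library was just above the highest control library. Its log2 change was 0.26 (SE 0.09, limma adjusted p = 0.138). Its highest value was in DOX replicate 1, and without that library the change was 0.20 (adjusted p = 0.25). On this scale, log2(FPKM + 1), changes of genes with low FPKM are understated. Sod1, the copper and zinc superoxide dismutase of the cytosol (ENSMUSG00000022982, chromosome 16 from 90220754 to 90226329, plus strand), was at 36.4, 34.2 and 37.4 FPKM in DOX and 28.8, 30.1 and 30.4 FPKM in control. The groups were apart, with a log2 change of 0.27 (SE 0.07, limma adjusted p = 0.0739), which did not pass, and was 0.26 (adjusted p = 0.116) without DOX replicate 1. Relative to the median of all genes, the Sod1 difference was 0.22, and 0.16 to 0.21 under the 3 other scalings. The Sod1 change itself fell to 0.20 under median ratios, 0.15 under quantile normalization and 0.11 without mitochondrial genes and copies in the sum. That of Nfe2l2 fell to 0.20, 0.18 and 0.11.

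Sod2, the manganese enzyme of mitochondria (chromosome 17 from 13006846 to 13040063), showed the narrowest spread of the 10, at 37.6, 38.4 and 37.5 FPKM in DOX and 37.5, 37.1 and 36.8 FPKM in control. Its log2 change of 0.03 had a 95% interval of -0.10 to 0.15 and took the other sign under each of the 3 other scalings. Cat, the catalase gene of peroxisomes (chromosome 2 from 103453849 to 103485160), had 48.2, 45.7 and 51.1 FPKM in DOX and 52, 63.1 and 50.9 FPKM in control. The control spread came largely from replicate 2, the groups overlapped, and the log2 change was -0.19 (SE 0.08, limma adjusted p = 0.28), or -0.09 without that library.

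Nqo1, which encodes an NAD(P)H quinone dehydrogenase and is a widely used NRF2 target (chromosome 8 from 107388225 to 107403206), had 14.6, 18.4 and 19.5 FPKM in DOX and 13.5, 17.1 and 14.5 FPKM in control. The groups overlapped, with a log2 change of 0.20 and a 95% interval of -0.11 to 0.51. Without DOX replicate 1, the lowest of its group, they were apart, and the change was 0.32 (adjusted p = 0.24). Gclm, the modifier subunit of glutamate-cysteine ligase (chromosome 3 from 122245557 to 122270732), had 2.55, 2.3 and 2.5 FPKM in DOX and 2.21, 4.69 and 3.44 FPKM in control. It was the most scattered of the 10 genes among control libraries, with a coefficient of variation of 36% there against 5.32% in DOX, and its log2 change of -0.33 had an interval of -0.76 to 0.11. That change was -0.13 without control replicate 2 and -0.54 without control replicate 1 (adjusted p = 0.783 and 0.0982). Gclc, the catalytic subunit (chromosome 9 from 77754535 to 77794485), was at 2.2, 2.16 and 2.36 FPKM in DOX and 2.34, 2.51 and 2.26 FPKM in control, overlapping, with a log2 change of -0.06 and an interval of -0.21 to 0.09. The ratio of Gclm to Gclc, which does not depend on library scaling, was 1.16, 1.07 and 1.06 in DOX and 0.943, 1.86 and 1.52 in control.

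Among the remaining reductases, Txnrd1, the cytosolic thioredoxin reductase (chromosome 10 from 82833951 to 82897712), Srxn1, the sulfiredoxin that repairs oxidized peroxiredoxins (chromosome 2 from 152105516 to 152111376), and Gsr, which returns oxidized glutathione to its reduced form (chromosome 8 from 33652523 to 33698163), had log2 changes of -0.09, -0.18 and -0.04. Their 95% intervals were -0.24 to 0.07, -0.42 to 0.06 and -0.19 to 0.10. DOX and control libraries overlapped in each of the 3 genes. The changes without DOX replicate 1 were -0.13, -0.12 and -0.04, and that of Gclc was -0.05.

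**Figure D2:**
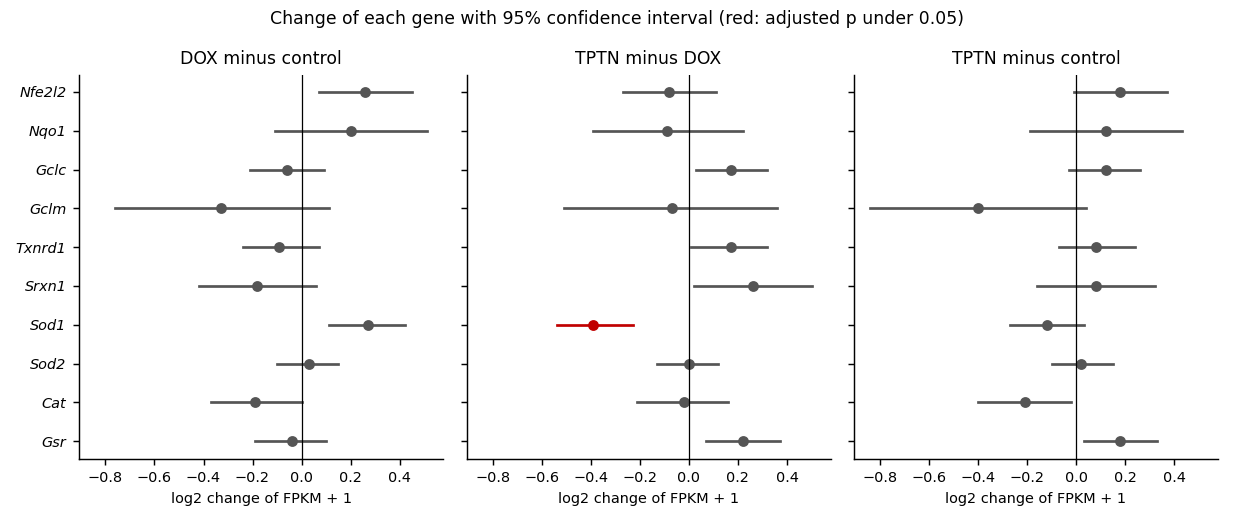
Log2 change of FPKM + 1 (horizontal axes) of the 10 genes (vertical axis) for DOX minus control, TPTN minus DOX and TPTN minus control, with limma's 95% confidence interval as a line. The 1 red point is Sod1 in TPTN minus DOX at -0.39; all others missed the adjusted threshold.

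The second question was which of these genes differed between the TPTN and the model hearts. Sod1 fell to 25, 28.4 and 28.5 FPKM in TPTN, against 36.4, 34.2 and 37.4 FPKM in DOX. Every TPTN library lay below every DOX library. The means were 27.3 ± 1.99 FPKM in TPTN and 36 ± 1.66 FPKM in DOX (SD, n = 3 each), a log2 change of -0.39 (SE 0.07, 95% interval -0.54 to -0.23, limma adjusted p = 0.0238). It was the only one of the 10 genes to pass, so 0 were called higher and 1 lower, where 0.792% and 2.46% of all genes were called, 3.26% in all. Leaving out any of 5 libraries ended the call, with adjusted p = 0.0515 and 0.0715 when DOX replicates 2 and 3 were left out in turn, 0.0729, 0.0504 and 0.0601 when TPTN replicates 1, 2 and 3 were, and log2 changes of -0.42 to -0.33. It held without DOX replicate 1 (log2 change -0.38, adjusted p = 0.0403) and under each of the 3 other scalings, at -0.29 with adjusted p = 0.0458 under quantile normalization and -0.26 with adjusted p = 0.0487 without mitochondrial genes and copies in the sum. With no filter on low values it was lost (adjusted p = 0.142), as it was with a minimum absolute log2 change of 0.5.

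Rescaling without mitochondrial genes and their copies moved the median log2 change of all genes from -0.01 to 0.09. Relative to that median, Sod1 stood at -0.38 in the deposited scaling and at -0.34 in the other. The ratio of Sod1 to Sod2 is free of library scaling, and was chosen after the values were seen, so it carries no test. It was 0.723 ± 0.0329 in TPTN, 0.952 ± 0.0555 in DOX and 0.801 ± 0.0294 in control (SD, n = 3 each), with the lowest DOX library at 0.89 and the highest of the other 6 at 0.825.

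Part of the Sod1 signal can be shared with copies. Of the 31-base words in its transcripts, 5.41% also occur in other genes, and the gene that shares the most is the pseudogene Gm8566. Sod1 also overlaps Scaf4, which lies on the opposite strand, and whether the counting used strand is not given in the sources used here. Gm8566 was listed at 6.59, 6.02 and 6.87 FPKM in TPTN, 8, 8.52 and 9.19 FPKM in DOX and 8.61, 9.04 and 6.58 FPKM in control, with a log2 change of -0.35 in TPTN against DOX (limma adjusted p = 0.0948). Its share in the Sod1 values was not tested. For Sod2, 26.7% of the words occur in other genes, for Gclm 6.82%, for Srxn1 0.738% and for the other 6 genes 0%. The gene that shares the most with Gclm is Ppia. A gene on the same strand overlaps Gclm (Gm6061), Txnrd1 (Eid3), Nfe2l2 (Gm24996) and Gsr (Gm24727). The part of these genes in the values was not tested. Red blood cells carry much Sod1 and catalase, and 7 red blood cell markers summed to 447 to 603 FPKM in TPTN, 331 to 971 in DOX and 396 to 945 in control. By library the sums were 331, 927 and 971 FPKM in DOX replicates 1, 2 and 3, where Sod1 stood at 36.4, 34.2 and 37.4 FPKM. The part of red blood cells in the Sod1 and Cat values was not tested.

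The genes with the pattern most like that of Sod1 over the 9 libraries were Pttg1ip, Gstm1, which encodes a glutathione S-transferase, and Map1lc3b, which encodes an LC3 protein of autophagosomes. Likeness was the root mean square difference of log2(FPKM + 1) values scaled to unit SD, over 4103 genes with a mean of at least 5 FPKM, and came to 0.177, 0.195 and 0.2 SD. Gstm1 was at 60.9, 68.7 and 73.6 FPKM in TPTN, 92.5, 84.2 and 88 FPKM in DOX and 70.6, 74.6 and 74.9 FPKM in control. Each of the 3 genes was highest in the DOX libraries, as the choice by likeness requires.

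**Figure D3:**
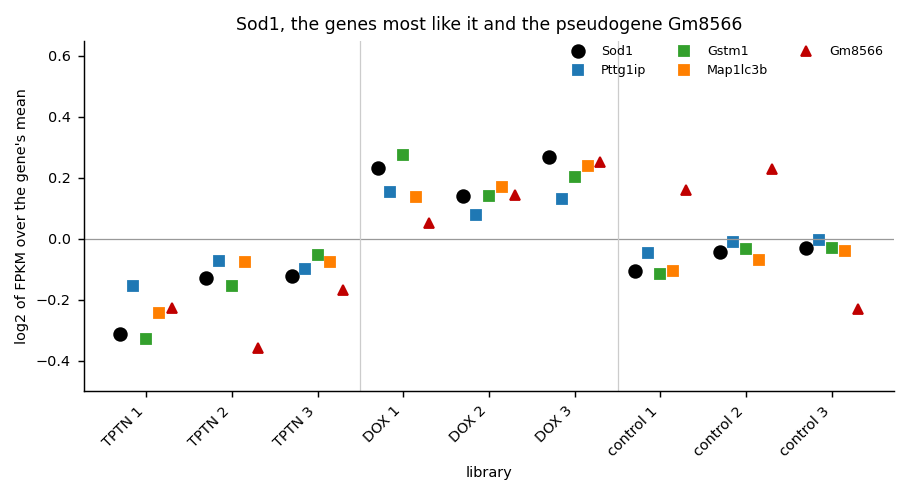
Log2 of FPKM over the gene's own mean (vertical axis) in each of the 9 libraries (horizontal axis, TPTN, DOX, control) for Sod1, the 3 genes most like it and the pseudogene Gm8566. Sod1, Pttg1ip, Gstm1 and Map1lc3b lie above 0 in the 3 DOX libraries and at or below 0 in the other 6, while Gm8566 is also above 0 in control replicates 1 and 2.

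Among the other 9 genes, 4 had higher values in TPTN than in DOX at an unadjusted p under 0.05, Gsr, Gclc, Txnrd1 and Srxn1, and none passed the adjusted threshold. The background is 7.78% of all genes higher and 12.9% lower at that unadjusted p, 20.6% in all. Gsr was at 5.53, 5.64 and 6.1 FPKM in TPTN and 4.78, 4.86 and 4.75 FPKM in DOX, with no overlap (log2 change 0.22, SE 0.07, limma adjusted p = 0.0996). It passed only with FPKM rescaled without mitochondrial genes and copies (log2 change 0.33, adjusted p = 0.0277), where its distance from the median of all genes was 0.25, against 0.23 in the deposited scaling. Gclc was at 2.57, 2.65 and 2.75 FPKM in TPTN and 2.2, 2.16 and 2.36 FPKM in DOX, again apart (log2 change 0.17, SE 0.07, limma adjusted p = 0.171).

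Txnrd1 had 5.81, 6.16 and 5.88 FPKM in TPTN and 5.58, 4.87 and 5.11 FPKM in DOX, apart by a narrow margin (log2 change 0.17, SE 0.07, adjusted p = 0.202). Srxn1 had 5.31, 6.96 and 6.18 FPKM in TPTN and 4.51, 4.84 and 5.55 FPKM in DOX, and here TPTN replicate 1 lay below DOX replicate 3 (log2 change 0.26, SE 0.11, adjusted p = 0.206). Over the 10 genes, 3 were apart and higher in TPTN and 1 apart and lower, where 10.4% and 14.1% of all genes were so placed, 24.5% in all. The median log2 change of the 10 was -0.01, as it was over all genes. Fitted without DOX replicate 1, the changes were 0.22 for Gsr, 0.17 for Gclc, 0.21 for Txnrd1 and 0.20 for Srxn1, with adjusted p = 0.114, 0.186, 0.103 and 0.326. There were then 3 higher and 1 lower at the unadjusted p (11.9% and 12.8% of all genes), with Srxn1 no longer among them, and 3 apart and higher and 2 apart and lower (22.7% and 19.9%).

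For the remaining 5 genes the TPTN and DOX libraries overlapped. Nfe2l2 itself was at 12, 12 and 12.5 FPKM in TPTN, all within the range of the other 6 libraries, with a log2 change from DOX of -0.08 and a 95% interval of -0.27 to 0.11. Nqo1 was at 13.4, 17.8 and 18.2 FPKM in TPTN, with a change of -0.09 and an interval of -0.39 to 0.22. Without DOX replicate 1 its change was -0.20 (limma adjusted p = 0.396), and every TPTN library then lay below every DOX library. Gclm was at 1.97, 2.98 and 1.99 FPKM in TPTN, and its change of -0.07 had the widest interval, -0.51 to 0.36. Catalase was at 46.8, 46.8 and 49 FPKM and Sod2 at 36.2, 39.4 and 37.6 FPKM in TPTN, with intervals of -0.21 to 0.16 and -0.13 to 0.12. The canonical NRF2 target Nqo1 and the factor's own gene thus showed no detectable difference at this spread, and the intervals leave room for changes of the sizes given.

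The third pair of groups, TPTN and control, shares its libraries with the others. In limma 0 of the 10 genes passed, with 2 at an unadjusted p under 0.05, Gsr higher (log2 change 0.18, adjusted p = 0.288) and Cat lower (log2 change -0.21, adjusted p = 0.325) in TPTN. Of all genes 0.336% were called higher and 0.384% lower, 0.72% in all, and 9.02% were higher and 4.12% lower at the unadjusted p, 13.1% in all. The median log2 change was 0.08, beside 0.04 over all genes. Gclc, Txnrd1 and Gsr lay above every control library in all 3 TPTN libraries, and Sod1 and Cat below, so 3 were apart and higher and 2 apart and lower, where the shares of all genes were 15.2% and 6.03%, 21.3% in all. Sod1 had a log2 change of -0.12 here (95% interval -0.27 to 0.03), beside -0.39 from DOX, and Nfe2l2 one of 0.18 (interval -0.01 to 0.37).

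The neighbouring genes of the pathway were read from 6 lists, whose counts stand beside the shares of all genes. At the adjusted p, the shares called higher and lower were 2.23% and 0.4% in DOX against control, 0.792% and 2.46% in TPTN against DOX, and 0.336% and 0.384% in TPTN against control. At the unadjusted p the shares were 14.6% and 3.47%, 7.78% and 12.9%, and 9.02% and 4.12%. The medians over all genes were 0.04, -0.01 and 0.04. Of 13 genes that regulate NRF2, such as Keap1, Bach1 and the small MAF genes, 12 were tested and 0 passed in any of the 3 comparisons in limma. At an unadjusted p under 0.05 there were 0 higher and 2 lower in DOX against control, 1 and 1 in TPTN against DOX and 0 in TPTN against control, of 12 genes, where 14.6% and 3.47%, 7.78% and 12.9%, and 9.02% and 4.12% of all genes were so placed. The most abundant of them, Sqstm1, an autophagy adaptor that binds KEAP1, was at 73.5 ± 7.58 FPKM in TPTN, 82.2 ± 9.26 in DOX and 83.8 ± 12 in control, and the related factor gene Nfe2l1 at 71 ± 2.36 FPKM in TPTN, 66.5 ± 1.06 in DOX and 72.3 ± 2.96 in control (SD, n = 3 each). Keap1, named outside the naming rule because of its role, averaged 8.33 ± 0.391 FPKM in TPTN, 8.67 ± 0.254 in DOX and 8.85 ± 0.471 in control. Without DOX replicate 1, 1 regulator passed, the small MAF gene Mafg, at -0.36 for DOX minus control (adjusted p = 0.0449) and 0.45 for TPTN minus DOX (adjusted p = 0.0288).

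Of 23 further NRF2 targets, 21 were tested. Those with an unadjusted p under 0.05 numbered 5 higher and 1 lower in DOX against control, beside 14.6% and 3.47% of all genes. In TPTN against DOX they numbered 1 and 4, beside 7.78% and 12.9%. Without DOX replicate 1 these counts were 6 and 1 (13.6% and 5.81% of all genes), and 0 and 5 (11.9% and 12.8%). In DOX against control 2 were called higher and 0 lower, where 2.23% and 0.4% of all genes were, with a median log2 change of 0.06, close to the 0.04 over all genes. Ephx1, an epoxide hydrolase gene, rose to 14, 14.1 and 14.7 FPKM in DOX, against 9.98, 11 and 9.87 FPKM in control, with every DOX library above every control library (log2 change 0.44, SE 0.07, limma adjusted p = 0.015). The carbonyl reductase gene Cbr3 was at 1.61, 1.48 and 1.42 FPKM in DOX and 0.945, 0.918 and 1.04 FPKM in control, also apart, and its change of 0.35 only just passed (adjusted p = 0.0477). In TPTN against DOX 0 were called higher and 1 lower, where 0.792% and 2.46% of all genes were, with a median of -0.06, beside -0.01. That was Ephx1, at 11, 11.8 and 11 FPKM in TPTN (log2 change -0.32, SE 0.07, adjusted p = 0.0323). In TPTN against control 0 passed, and 0 had an unadjusted p under 0.05. Hmox1, the heme oxygenase gene and a classical NRF2 target, named outside the rule because of its role, averaged 3.29 ± 0.159 FPKM in TPTN, 3.14 ± 0.245 in DOX and 5.04 ± 2.52 in control, where replicate 2 alone stood at 7.95.

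The Ephx1 rise in DOX was lost without DOX replicate 2 (adjusted p = 0.0609), control replicate 2 (0.0579) and control replicate 3 (0.0573), and its fall in TPTN without DOX replicates 2 (0.0899) and 3 (0.0874), TPTN replicates 1 (0.1), 2 (0.0596) and 3 (0.0977) and control replicate 3 (0.0535). Scaled without mitochondrial genes and copies, the adjusted p of Ephx1 was 0.0598 and 0.102 in these comparisons, and under quantile normalization it was 0.0585 for TPTN against DOX. Each of the 3 other scalings ended the Cbr3 call, at adjusted p = 0.069 under median ratios, 0.0653 under quantile normalization and 0.122 without mitochondrial genes and copies. Cbr3 kept its call in 1 of 9 fits that left out a library, that without TPTN replicate 3, and the others gave adjusted p = 0.0585 to 0.164.

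In the thioredoxin and peroxiredoxin system all 19 genes were tested. Of these, 1 was called higher and 0 lower in DOX against control, where 2.23% and 0.4% of all genes were. Those with an unadjusted p under 0.05 numbered 5 higher and 0 lower there, beside shares of 14.6% and 3.47%. In TPTN against DOX they numbered 1 and 7, beside 7.78% and 12.9%, and in TPTN against control 2 and 2, beside 9.02% and 4.12%. Selenow, a small selenoprotein gene strongly expressed in muscle, rose to 112, 104 and 121 FPKM in DOX, against 78.6, 78.3 and 82.9 FPKM in control (log2 change 0.48, SE 0.07, limma adjusted p = 0.015), and was the only 1 called in that comparison. In TPTN against DOX 1 gene was called higher and 2 lower, where 0.792% and 2.46% of all genes were. Selenow fell to 85, 88.5 and 89.1 FPKM in TPTN (log2 change -0.35, adjusted p = 0.0273). Sesn1, a sestrin gene, fell to 14.8, 14.1 and 15.1 FPKM in TPTN, against 22.4, 21.9 and 21.5 FPKM in DOX (log2 change -0.55, SE 0.08, adjusted p = 0.014). Msrb3, a methionine sulfoxide reductase gene, rose to 15.6, 13.1 and 13.6 FPKM in TPTN, against 10.6, 10.3 and 9.49 FPKM in DOX (log2 change 0.44, adjusted p = 0.0242). The TPTN and DOX libraries did not overlap in any of these 3 genes.

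Sesn1 was also the 1 gene of this list called in TPTN against control, where it stood at 20, 24.7 and 24.6 FPKM (log2 change -0.62, SE 0.08, limma adjusted p = 0.00969). The shares of all genes called in that comparison were 0.336% higher and 0.384% lower. Both Sesn1 calls held in each of the 9 fits that left out a library. Selenow lost its rise in DOX without control replicate 2 (adjusted p = 0.0579) and control replicate 3 (0.0555), and its fall in TPTN without DOX replicate 3 (0.0772) and TPTN replicates 1 (0.0893), 2 (0.0636) and 3 (0.0733), under quantile normalization (-0.21, adjusted p = 0.0781) and scaled without mitochondrial genes and copies (-0.22, adjusted p = 0.0618). Msrb3 lost its call without DOX replicates 2 (0.0642) and 3 (0.0745) and TPTN replicates 1 (0.0803) and 3 (0.0648). Without DOX replicate 1, Prdx2 also passed in DOX against control (0.38, adjusted p = 0.0476) and Msrb1 in TPTN against DOX (-0.48, adjusted p = 0.0288). At the unadjusted p, that fit gave 8 higher and 0 lower in DOX against control (13.6% and 5.81% of all genes). It gave 1 and 7 in TPTN against DOX (11.9% and 12.8%).

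In the glutathione system 16 of 18 genes were tested and 0 passed in any comparison in limma. At an unadjusted p under 0.05, 3 were higher and 0 lower in DOX against control, 0 higher and 7 lower in TPTN against DOX, and 0 in TPTN against control, with medians of 0.11, -0.17 and -0.06, beside 0.04, -0.01 and 0.04 over all genes. The shares of all genes at that p were 14.6% and 3.47% in DOX against control, near the 3 of 16 here, and 7.78% and 12.9% in TPTN against DOX. The counts without DOX replicate 1 were 4 and 0 in DOX against control (13.6% and 5.81% of all genes) and 0 and 8 in TPTN against DOX (11.9% and 12.8%). Gpx4, the peroxidase of membrane lipid peroxides and the most abundant of the list, was at 148, 182 and 160 FPKM in TPTN, 164, 203 and 232 FPKM in DOX and 178, 160 and 174 FPKM in control, overlapping throughout. Gpx3, which encodes a secreted peroxidase, had 53, 64.6 and 50.5 FPKM in TPTN and 236, 78.6 and 75.7 FPKM in DOX, and its high value was in DOX replicate 1, the library with the atrial marker sum of 2621 FPKM. Without that library Gpx3 was called lower in TPTN than in DOX (log2 change -0.46, adjusted p = 0.0426). The part of the atrial markers in the Gpx3 values was not tested.

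**Figure D4:**
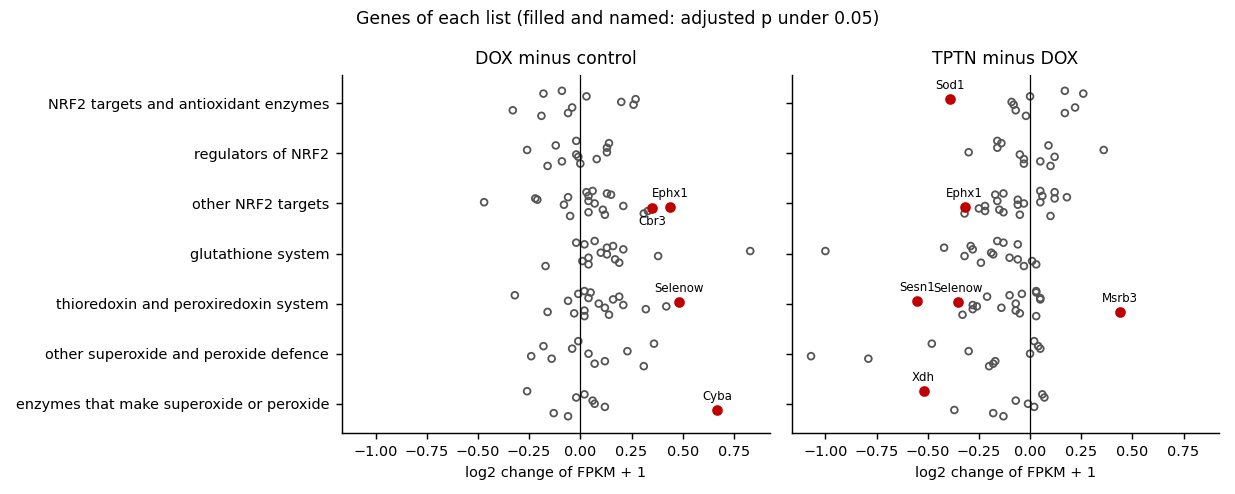
Log2 change of FPKM + 1 (horizontal axes) for each tested gene of the 7 lists (rows), for DOX minus control and TPTN minus DOX. Filled and named points passed the adjusted threshold, 4 in DOX minus control and 6 in TPTN minus DOX; Nnt is left out because its values are split between 2 rows of the table.

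Of 12 genes of other superoxide and peroxide defence, all were tested and 0 passed in limma. At an unadjusted p under 0.05, 2 were higher and 0 lower in DOX against control, 0 higher and 6 lower in TPTN against DOX, and 0 higher and 2 lower in TPTN against control. The shares of all genes were 14.6% and 3.47%, near the 2 of 12 here, 7.78% and 12.9%, and 9.02% and 4.12%. Without DOX replicate 1 the first pairs of counts were again 2 and 0, and 0 and 6. Mt1, a metallothionein gene, was at 38.3, 37.5 and 30.2 FPKM in TPTN, 56.3, 59.9 and 69.6 FPKM in DOX and 63.2, 92 and 54.3 FPKM in control, so that each TPTN library lay below the other 6 (log2 change from DOX -0.79, limma adjusted p = 0.0562, and from control -0.94, adjusted p = 0.0667). Without DOX replicate 1, Atox1, a copper chaperone gene, passed in DOX against control (0.41, adjusted p = 0.0385) and Park7 in TPTN against DOX (-0.36, adjusted p = 0.033). Nnt, the mitochondrial transhydrogenase that supplies NADPH for glutathione, is listed under 2 identifiers, and its values moved between them: 22.5 and 30.8 FPKM in TPTN replicate 1, 2.94 and 128 in replicate 2 and 93.7 and 0 in replicate 3. The sum of the 2 was 53.3 to 131 FPKM over the 9 libraries, and neither value alone can be read as the level of the gene. It enters the counts of the list once, by ENSMUSG00000025453.

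Enzymes that make superoxide or peroxide had 9 of 14 genes tested. With an unadjusted p under 0.05, 1 was higher and 1 lower in DOX against control, beside 14.6% and 3.47% of all genes. The counts were 0 and 2 in TPTN against DOX (7.78% and 12.9%), and 1 and 3 in TPTN against control (9.02% and 4.12%). At the adjusted p the shares of all genes in these comparisons were 2.23% and 0.4%, 0.792% and 2.46%, and 0.336% and 0.384%. In DOX against control 1 was called higher, Cyba, which encodes a membrane subunit of NADPH oxidases, at 18.2, 23.3 and 17.3 FPKM in DOX and 11.3, 11.5 and 12.8 FPKM in control (log2 change 0.67, SE 0.11, limma adjusted p = 0.0195). It stood at 13.9, 14 and 16.7 FPKM in TPTN, where the change from DOX was -0.37 (adjusted p = 0.0945). Xdh, the xanthine dehydrogenase gene, was the 1 called lower in TPTN against both other groups, at 7.32, 7 and 7.55 FPKM in TPTN, 10.8, 11.5 and 10.3 FPKM in DOX and 11.6, 14.7 and 13.5 FPKM in control. Every TPTN library lay below every library of the other groups. The log2 changes were -0.52 from DOX (SE 0.09, adjusted p = 0.0207) and -0.78 from control (SE 0.09, adjusted p = 0.00408).

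The Xdh call against control held in each of the 9 fits that left out a library, while that against DOX was lost without DOX replicates 2 (adjusted p = 0.0603) and 3 (0.0509) and TPTN replicates 1 (0.0644), 2 (0.0578) and 3 (0.0592). Cyba lost its call without DOX replicate 2 (0.0609), control replicate 2 (0.0695) and control replicate 3 (0.0555). In bulk hearts, fewer cells of a type and less RNA per cell cannot be told apart. Endothelial markers summed to 171 to 198 FPKM in TPTN, 173 to 183 in DOX and 169 to 184 in control. Of these 10 markers, 5 had a positive and 5 a negative change in TPTN minus DOX. Kdr was called higher in TPTN (log2 change 0.48, limma adjusted p = 0.0303), so the endothelial sum does not stand for each marker. Macrophage markers summed to 135 to 156 FPKM in TPTN, 133 to 169 in DOX and 141 to 182 in control. Neutrophil markers, 6 of 7 with a mean under 1 FPKM, summed to 0.687 to 0.802 FPKM in TPTN, 1.44 to 4.37 in DOX and 4.99 to 12.5 in control. Fat cell markers, also 6 of 7 with a mean under 1 FPKM, summed to 20.1 to 23.8 FPKM in TPTN, 26.3 to 36.6 in DOX and 27.7 to 39 in control. Nearly all of that sum was Plin4, with means of 21.4 FPKM in TPTN, 29.3 in DOX and 33.6 in control, so it reads 1 gene rather than a cell type. Fibroblast markers summed to 356 to 408 FPKM in TPTN, 385 to 610 in DOX and 361 to 396 in control. Gsn was the largest of them, with means of 246, 330 and 254 FPKM in these groups. Of the 10 markers, 3 had a positive and 7 a negative change in TPTN minus DOX. Col3a1 was called higher in TPTN (log2 change 0.65, limma adjusted p = 0.0282), so the sum does not stand for each marker. For smooth muscle and pericyte markers the sums were 164 to 201 FPKM in TPTN, 145 to 188 in DOX and 134 to 188 in control. Liver markers stayed under 1 FPKM in sum, at 0.367 to 0.897. The part of these cell types in the results was not tested.

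The authors' deposited table carries 1 p-value and 1 q-value per gene, with no statement of which groups were compared. Of the 10 genes, the authors' deposited table marks 3 as significant, Sod1 (p = 0.000501, q = 0.0119), Nfe2l2 (p = 0.0126, q = 0.109) and Gclm (p = 0.0202, q = 0.145), and 1 has a q under 0.05. Over all genes of the authors' deposited table, 2892 of 29237 are so marked and 1047 have a q under 0.05.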

How the data were processed

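Polyadenylated RNA of mouse hearts was sequenced as strand-marked paired reads, per the labels' protocols. The authors deposited FPKM values per gene and library, and per the submitters' processing notes the tools named are cutadapt 1.9, HISAT2 2.0.4, StringTie 1.3.4d, DESeq2 and edgeR, with the genome GRCm38 and no role for each. The deposited file also holds p-values and q-values. FPKM divides by each library's total, so a shift in abundant mitochondrial transcripts moves all other values. No counts are held, and whole reads could not be recovered, so limma was used, as planned for FPKM. The depth of the libraries is therefore unknown.

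Log2(FPKM + 1) values of 12500 genes with a mean of at least 0.5 FPKM were fitted with limma 3.58.1 (R 4.3.3) with a mean per group over all 9 libraries, a variance trend and robust moderation. The threshold was a Benjamini-Hochberg adjusted p under 0.05 over all genes, in either direction. The genes described and all lists were chosen with earlier results of these data known. Named are the 10 genes, up to 4 genes past the threshold per list and comparison, and, in lists where none passed, the 2 with the highest mean. For each of the 10 past the threshold, the 3 genes most like it are named. Genes named outside this rule are marked as such in the text or passed only without DOX replicate 1. Positions are from GENCODE M21 on GRCm38 and promoter sequences from RefSeq on GRCm38.p6. The procedure was tested on simulated data. Python 3.11.15, pandas 2.3.3, numpy 2.4.6 and matplotlib 3.10.9 were used for tables and plots. Alternatives were other pseudocounts, filters, scalings, fits and a replicate block, and leaving out each library.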

Additional observations from a re-analysis of the deposited data

How the results depend on the processing

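Over the 10 genes and 3 comparisons, 542 of 570 alternative values kept their direction and their side of the threshold, 20 took the other sign, 7 lost a call, all of Sod1 in TPTN against DOX, and 1 gained one. The count of the 10 genes past the threshold in TPTN against DOX was 1, and became 0 with a minimum absolute log2 change of 0.5 or with no filter on low values, 2 when scaled without mitochondrial genes and copies, and 0 to 1 when a library was left out. It was 0 under all alternatives in the other comparisons.

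Genes past the threshold in DOX against control were 329, and 155 under median ratio scaling, 143 under quantile normalization, 94 with the minimum log2 change, 2 with no filter, 176 with only the groups compared and 2 to 316 when a library was left out: 2, 4 and 203 without control replicates 2, 3 and 1, 8 and 91 without DOX replicates 2 and 3, and 204 without TPTN replicate 3, each over 1.5 times from 329. In TPTN against DOX they were 407, and 128 with the minimum log2 change, 2 with no filter, 671 when scaled without mitochondrial genes and copies and 45 to 484 when a library was left out, with 51, 86 and 45 without TPTN replicates 1, 2 and 3, 74 and 60 without DOX replicates 2 and 3, and 212 without control replicate 3. In TPTN against control they were 90, and 6 with no filter and 21 to 146 when a library was left out, with 35, 29 and 21 without TPTN replicates 1, 2 and 3, and 146, 33 and 34 without control replicates 1, 2 and 3. With the replicate number as a block, the counts were 170, 159 and 62. Same-numbered libraries did not deviate together (correlations across genes of -0.26 to 0.02), while TPTN and control libraries of different numbers reached 0.40. Deviations from the mean of so few libraries cannot exclude a pairing, so whether the numbers pair the samples stays unknown. With no filter on low values, none of the 12 calls of Sod1 and the list genes held (adjusted p = 0.0839 to 0.174). The block changed no call of the 10 genes and ended those of Cbr3 in DOX against control (adjusted p = 0.0871) and Ephx1 in TPTN against DOX (0.0696).

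Values that took the other sign were all of genes not past the threshold. Sod2 in DOX against control became -0.04 under median ratios, -0.11 under quantile normalization and -0.14 without mitochondrial genes and copies in the sum. In TPTN against DOX these gave 0.01, 0.14 and 0.13 for Sod2, and for Cat 0.13 and 0.11, and Nqo1 0.01 and 0.04, under the last 2. There Gclm became 0.02 and Nfe2l2 0.04 without mitochondrial genes and copies, and Sqstm1 0.01 under quantile normalization. In TPTN against control Sod2 became -0.03 under median ratios and -0.01 without mitochondrial genes and copies. With a library left out, TPTN against DOX ranged from -0.06 to 0.02 for Cat, -0.20 to 0.05 for Nqo1 and -0.03 to 0.03 for Sod2. TPTN against control ranged from -0.01 to 0.05 for Sod2, -8.01e-04 to 0.17 for Srxn1, -0.15 to 0.00246 for Gpx4, -0.05 to 0.01 for Nfe2l1 and -1.56 to 1.04 for ENSMUSG00000025453, 1 of the 2 identifiers of Nnt. DOX against control ranged from -0.30 to 0.07 for Mt1, -0.16 to 2.22 for that identifier, which cannot be read as the gene, and -0.15 to 0.06 for Sqstm1.

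An alternative chosen after seeing the data left DOX replicate 1 out of the list counts and of the counts at the unadjusted p. Genes past the threshold in DOX against control went from 2 to 1 among further NRF2 targets. They went from 1 to 2 in the thioredoxin system and from 0 to 1 each among regulators and in other superoxide and peroxide defence. In TPTN against DOX the thioredoxin system went from 3 to 4. The glutathione system, other superoxide and peroxide defence and the regulators each went from 0 to 1. The other list counts stayed the same. Of 12436 genes then tested, 316 passed in DOX against control and 484 in TPTN against DOX. The causes of these changes were not tested, except that fits that leave out a library hold fewer samples and the fit with no filter tests more genes.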
